A study of Mus musculus with 6 samples.

Results

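The 10 genes described here carry iron across the cell boundary, store it or change its oxidation state, and were followed in mouse fat cells grown in culture after deletion of Tcf7l2, a transcription factor gene of the Wnt pathway. They (Hephl1, Heph, Cp, Trf, Tfrc, Steap4, Slc11a2, Fth1, Ftl1 and Slc40a1) were found by symbol among 49671 genes with counts. Hephl1 had been picked for its large difference between the groups, and the others were grouped with it by function while results of the same comparison were known. Their differences between the groups are therefore given as a description, with no p-value for any of the 10.

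The 6 libraries came from 1 line of preadipocytes of C57BL/6 Tcf7l2 F/F mice aged 3 months, sorted from inguinal fat, immortalised with SV40 large T antigen and infected with a retrovirus encoding CreERT2. Knockout cells (3 libraries) had received 4-hydroxytamoxifen, which activates that recombinase, and control cells (3 libraries) ethanol, in both cases for 24 h and 2 days before differentiation was induced. All cells carried the floxed alleles, the T antigen and CreERT2, and all were differentiated until day 8 with 1 µM dexamethasone, 0.5 mM isobutylmethylxanthine and 5 µg/mL insulin. The labels add an agent at 5 nM whose code runs from W1932 to W1934 in the knockout libraries and from W1929 to W1931 in the control libraries, and do not settle whether it was 1 agent. Drug and deletion cannot be told apart in this design. The labels name no separate cultures, so the spread between libraries may be technical.

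Cells take up iron mainly bound to transferrin, through the transferrin receptor, and reductases and the transporter DMT1 then move it into the cytosol. Ferritin, a shell of heavy and light chains, stores what is not used, and ferroportin exports it with the help of copper-containing ferroxidases, which oxidise iron so that transferrin can bind it. Several of these messages are controlled through the iron-responsive element, a hairpin bound by iron regulatory proteins when iron is scarce. In front of the coding sequence the bound element blocks translation, and behind it the bound elements protect the message from decay. Adipocytes use iron for mitochondrial proteins and for differentiation.

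Copies of the hairpin are shown because they are the sites through which some of the 10 messages are controlled. Annotated transcripts were searched for a C, 5 bases, the loop CAGTGN with N other than G, and 5 bases able to pair with the first 5, allowing G to pair with T. The pattern was present in 4 of the 10 genes, and in 1.01% of 21877 protein-coding genes. Each stretch of 30 bases is given 5′ to 3′ as DNA from the GENCODE M21 transcripts on GRCm38, with the bulged C and the loop in capitals. The transcripts of Fth1, Ftl1 and Slc40a1 held 1 copy each in the leader before the coding sequence, and that of Tfrc held 4 copies behind the coding sequence.
Fth1 (chr19:9982732-9982761, plus strand): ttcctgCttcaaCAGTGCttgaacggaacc
Ftl1 (chr7:45459778-45459807, minus strand): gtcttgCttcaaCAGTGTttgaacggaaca
Slc40a1 (chr1:45925464-45925493, minus strand): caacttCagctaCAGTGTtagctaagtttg
Tfrc, copy 1 (chr16:32631219-32631248, plus strand): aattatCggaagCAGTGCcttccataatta
Tfrc, copy 2 (chr16:32631598-32631627, plus strand): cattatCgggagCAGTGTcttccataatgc
Tfrc, copy 3 (chr16:32631663-32631692, plus strand): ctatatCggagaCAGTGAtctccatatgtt
Tfrc, copy 4 (chr16:32631710-32631739, plus strand): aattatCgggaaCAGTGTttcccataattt
The elements of Fth1 and Ftl1 share the stem before the loop, and the 4 of Tfrc differ from each other in the stem. The strict pattern could miss further hairpins in the 4 genes that matched. Absence of a match in the other 6 genes says only that this strict pattern was not found in the annotated transcripts. Slc11a2, for one, is known for a hairpin behind the coding sequence of some of its transcripts, with an irregular stem that the pattern does not allow.

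Library totals were 26764263 to 31520011 counts for knockout and 26621293 to 33484764 for control. The adipocyte markers (Adipoq, Plin1, Fabp4, Cidec, Lep, Pparg and Cebpa) were detected in every library, with a summed level of 8104 to 9847 CPM, a count per library size after TMM scaling, in knockout and 5604 to 5883 CPM in control libraries, and all 7 were called higher in knockout cells. Fabp4 made up most of these sums, at 5951 to 7613 CPM in knockout and 4268 to 4511 CPM in control libraries. The log2 fold changes of the 7 adipocyte markers ran from 0.32 (Pparg) to 1.93 (Lep). Of 5 preadipocyte or fibroblast markers 0 were called by edgeR, 2 by DESeq2 and 1 by limma-voom. Among the same 5, 3 had an unadjusted edgeR p under 0.05. These 3 went in different directions. Ly6a was higher in knockout cells (918 ± 86.1 CPM, against 671 ± 115 CPM in control cells). Pdgfra (1135 ± 44.8 and 1247 ± 22.6 CPM, in the same order) and Itgb1 (1031 ± 33.8 and 1111 ± 31.8 CPM) were lower. Macrophage and leukocyte markers summed to 4.68 to 5.71 CPM in knockout and 4.43 to 5.45 CPM in control libraries. Adgre1 was at 0 in all 6 libraries. Csf1r (2.75 ± 0.287 CPM in knockout and 2.85 ± 0.514 CPM in control cells) and Cd68 (1.75 ± 0.269 and 1.44 ± 0.245 CPM) were detected and not called. Erythroid markers summed to 2.88 to 3.21 CPM in knockout and 2.59 to 3.25 CPM in control libraries. Nearly all of this was Epor (3.00 ± 0.153 CPM in knockout and 2.97 ± 0.33 CPM in control cells, not called), and the 4 haemoglobin genes were at 0. Endothelial markers summed to 26.6 to 28.1 CPM in knockout and 23.1 to 25.05 CPM in control libraries, where Kdr was called higher (17.6 ± 0.756 CPM in knockout and 13.6 ± 1.02 CPM in control cells; edgeR adjusted p = 0.00363) while Cdh5 had at most 1 count and Pecam1 at most 6 counts in a library. Tek, the other tested endothelial marker, was not called (9.35 ± 0.148 CPM in knockout and 10.2 ± 0.723 CPM in control cells, edgeR adjusted p = 0.354). The part of the adipocyte markers' rise and of Kdr in the results on iron genes was not tested. In bulk RNA fewer cells of a type and less RNA per cell cannot be told apart. Tcf7l2 itself was at 5.65, 6.85 and 5.86 CPM in knockout and 7.71, 6.13 and 9.11 CPM in control libraries. Its ranges overlap, and a whole-gene count cannot show whether the floxed exons are gone.

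Trf, Tfrc and Steap4, which serve iron uptake, and the ferroxidase genes Hephl1 and Cp were higher in knockout cells, and the exporter gene Slc40a1, the ferritin light chain gene Ftl1 and the ferroxidase gene Heph were lower. At an adjusted p under 0.05 (edgeR quasi-likelihood test, Benjamini-Hochberg over all genes tested), 8 of the 10 genes were called, 5 higher and 3 lower, where 22.4% of 14946 tested genes were called. All 10 passed the filter on low counts. The groups did not overlap for 9 of the 10 genes, as for 37.9% of tested genes: 6 were higher in every knockout library (18.5% of tested genes) and 3 lower (19.3%). The median log2 fold change of the 10 was 0.36 and that of all tested genes -0.0017. These genes were selected with the comparison in view, so the counts are not evidence about iron genes as a class.

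**Figure D1:**
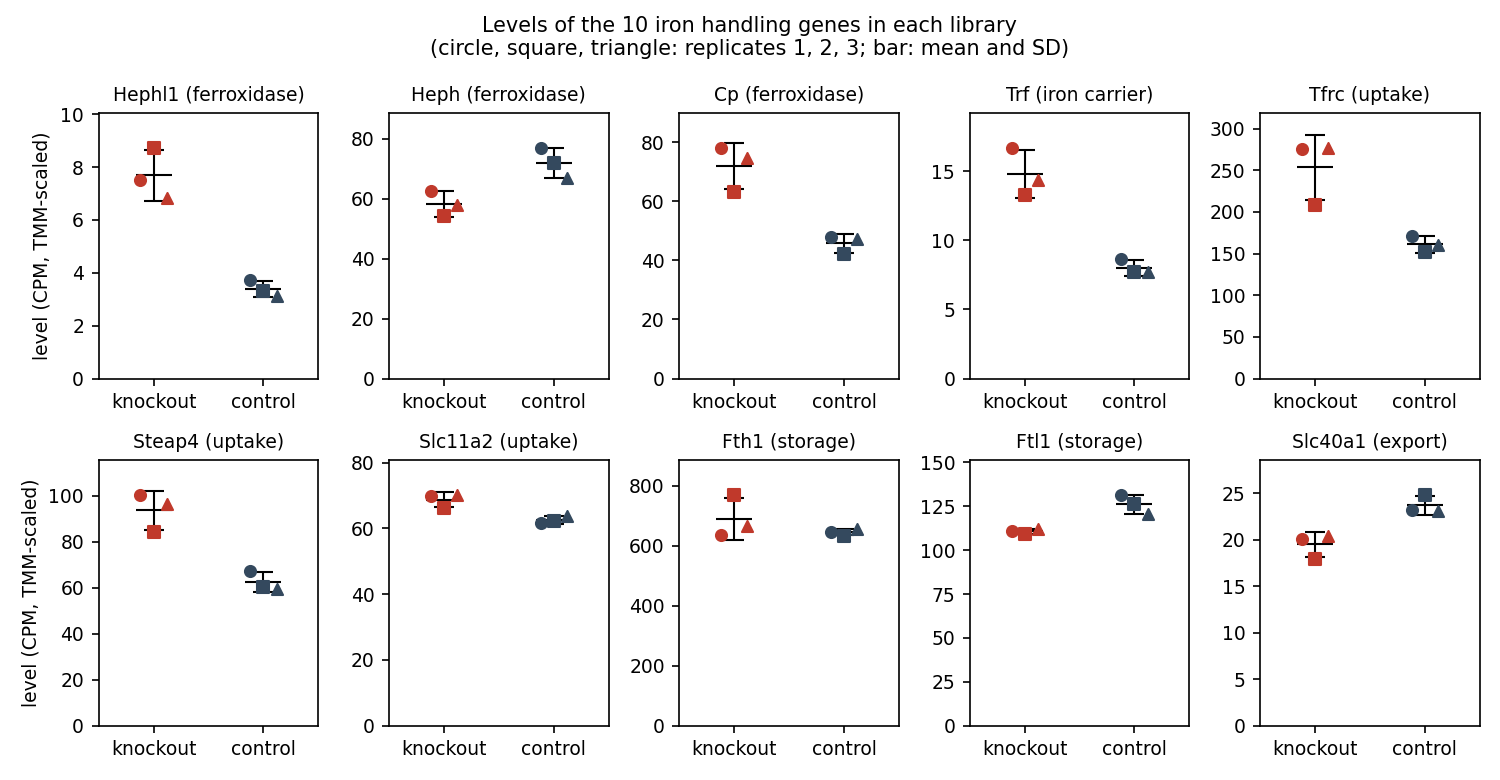
Level of each gene in CPM (TMM-scaled, linear axes from 0), with knockout libraries on the left and control libraries on the right of each panel; the bar is the mean with the SD of 3 libraries. The groups are apart in every panel except that of Fth1, where knockout replicate 2 (769 CPM) lies above the other 5 libraries.

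The ferroxidase genes moved in different directions. Hephl1 encodes hephaestin-like 1, a membrane-bound multicopper ferroxidase (ENSMUSG00000031936, GRCm38 chromosome 9, 15051841 to 15112108, minus strand). It was at 7.53, 8.73 and 6.83 CPM in knockout libraries, against 3.72, 3.29 and 3.13 CPM in control libraries. The lowest knockout library stood well above the highest control library. The fold change was 2.27 (log2 1.18, SE 0.13). It was nevertheless a scarce message, read from 183 to 274 counts per knockout library and 83 to 125 per control library.

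Cp encodes ceruloplasmin, the ferroxidase best known as a plasma protein, which also has a membrane-anchored form. It was at 78.0, 63.1 and 74.5 CPM in knockout libraries and 47.9, 42.0 and 47.3 CPM in control libraries. All 3 knockout libraries were above the control range, with knockout replicate 2 nearest to it (log2 fold change 0.65, SE 0.08). Heph encodes hephaestin, the ferroxidase that works beside ferroportin in the gut. It ran the other way, at 62.7, 54.2 and 57.9 CPM in knockout libraries and 77.0, 71.8 and 67.1 CPM in control libraries (log2 fold change -0.31, SE 0.065). Every knockout library was below every control library.

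Because Cp rose and Heph fell, the make-up of ferroxidase messages differed between the groups. On a scale of CPM per kilobase of a representative transcript, Cp made up 56.4% ± 1.72 of the summed level of the 3 genes in knockout cells and 41.8% ± 2.31 in control cells (SD, n = 3 each). Heph made up 38.9% ± 0.804 in knockout cells and 55.8% ± 2.22 in control cells. Hephl1 made up 4.68% ± 0.951 in knockout cells and 2.36% ± 0.107 in control cells, so that even after its rise it was the smallest of the 3. The summed level was 28.7 to 34.0 CPM per kilobase in knockout and 26.2 to 28.8 in control libraries, which overlap. With the union of all annotated exons as the length, Cp and Heph were nearly equal in knockout cells (45.2% ± 1.97 and 45.9% ± 0.407) and Heph led in control cells (32.3% ± 2.08 for Cp and 63.4% ± 1.96 for Heph). The lead of Cp in knockout cells therefore rests on the choice of transcript. The change in the ratio of Cp to Heph between groups cannot depend on the length, which is the same in every library.

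**Figure D2:**
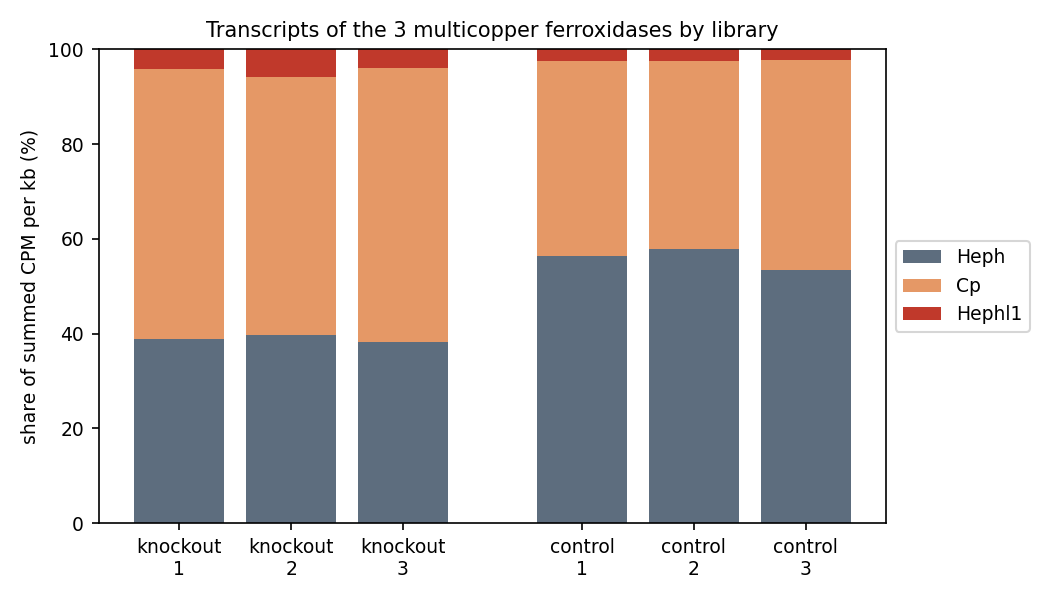
Share of each ferroxidase gene in the summed CPM per kilobase of Hephl1, Heph and Cp, one stacked bar per library, knockout on the left. Heph takes 38.1% to 39.8% of each knockout bar and 53.4% to 57.8% of each control bar, and Hephl1 is the thin segment on top.

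Of the carrier and 3 uptake genes, Trf, Tfrc and Steap4 rose and Slc11a2 was not called. Trf encodes transferrin, the iron carrier that liver secretes and other tissues also make. It was at 16.7, 13.3 and 14.4 CPM in knockout libraries and 8.67, 7.69 and 7.68 CPM in control libraries, a fold change of 1.84 (log2 0.88, SE 0.10). The groups were well apart. In GENCODE M21, 63.5% of the exonic bases of Trf are shared with Gm20425 on the same strand, which had 0 counts in all 6 libraries, and whether Trf lost reads to that overlap was not tested.

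Tfrc encodes the transferrin receptor, the message with the 4 pattern matches shown above. It was at 275, 208 and 277 CPM in knockout libraries and 171, 151 and 161 CPM in control libraries (log2 fold change 0.65, SE 0.11). Knockout replicates 1 and 3 were close to each other, and knockout replicate 2 lay between them and the controls. Without knockout replicate 2 the log2 fold change was 0.78, the highest of the values with 1 library left out, of which 0.59 was the lowest.

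Steap4 encodes a metalloreductase that reduces ferric iron and cupric copper and is abundant in adipose tissue. It was at 100.4, 84.2 and 96.4 CPM in knockout libraries and 67.4, 60.3 and 59.4 CPM in control libraries (log2 fold change 0.59, SE 0.07), with no overlap. Slc11a2 encodes DMT1, which carries ferrous iron out of endosomes. It was at 70.0, 66.1 and 70.2 CPM in knockout libraries and 61.5, 62.2 and 63.8 CPM in control libraries, a difference of 0.14 on the log2 scale (SE 0.05) that was not called. The groups did not overlap but lay close, and Slc11a2 was called without knockout replicate 2 and with a filter of 1 CPM in 3 libraries.

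The storage genes had the highest levels of the 10 per kilobase of transcript. Fth1 encodes the ferritin heavy chain, which oxidises iron as it enters the shell. It was at 636, 769 and 664 CPM in knockout libraries and 647, 633 and 654 CPM in control libraries, a log2 fold change of 0.097 (SE 0.064) that was not called. Knockout replicate 1 lay inside the control range, and without knockout replicate 2 the log2 fold change was 0.01. Ftl1 encodes the light chain, which helps to form the iron core. It was at 111, 109 and 112 CPM in knockout libraries and 131, 126 and 121 CPM in control libraries (log2 fold change -0.19, SE 0.048), without overlap. Ftl1 was not called without control replicate 1. Ferritin genes have many processed copies in the genome, so reads shared with them make both levels uncertain: 14 other rows with ferritin names held at most 8 counts in any library. Gm10252 on the opposite strand overlaps 26.5% of the exonic bases of Ftl1 and had at most 2 counts.

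Slc40a1 encodes ferroportin, the only known iron exporter of mammalian cells. It was at 20.1, 18.0 and 20.4 CPM in knockout libraries and 23.2, 24.8 and 23.1 CPM in control libraries (log2 fold change -0.28, SE 0.072). All knockout libraries were below all control libraries, and Slc40a1 was not called without control replicate 2. Per length of the representative transcripts, the ratio of Tfrc to Slc40a1 within a library was 7.97 to 9.43 in knockout and 4.20 to 5.07 in control libraries. The ratio of Tfrc to Fth1 was 0.0828 to 0.132 in knockout and 0.0730 to 0.0806 in control libraries, and its lowest knockout value, that of replicate 2, lay just above the controls. With the union of all exons as the length, Tfrc over Slc40a1 was 16.8 to 19.9 in knockout and 8.87 to 10.7 in control libraries, and Tfrc over Fth1 was 0.152 to 0.243 in knockout and 0.134 to 0.148 in control libraries, so only the comparison between groups can be read from these ratios.

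Among the 4 genes that matched the pattern, Tfrc with its copies behind the coding sequence rose, Ftl1 and Slc40a1 with the copy in the leader fell, and Fth1 with the same kind of copy was not called. The 6 genes with no match, Slc11a2 among them, included both rises and a fall. Message levels do not measure the translation that the leader elements control.

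**Figure D3:**
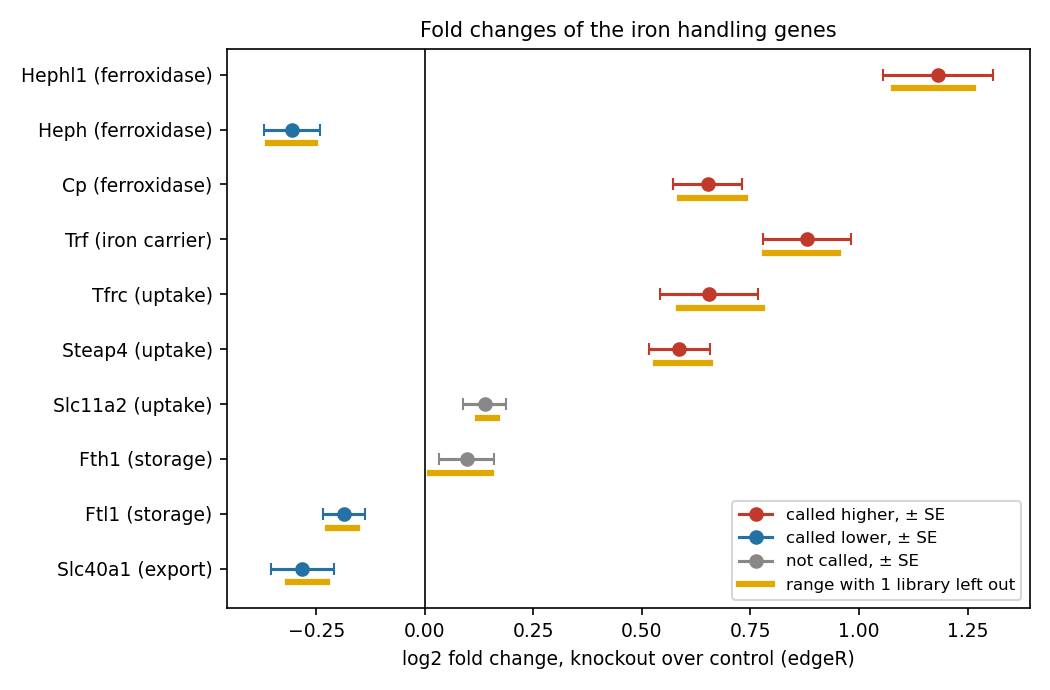
Fold change of each gene on the log2 scale (knockout over control, edgeR) with its SE, ordered by role from ferroxidases to the exporter; the bar under each point is the range with 1 library left out. Points lie between -0.31 (Heph) and 1.18 (Hephl1), and no bar crosses 0, with that of Fth1 ending at 0.01.

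Knockout replicate 2 was the lowest knockout library for 8 of the 10 genes and the highest for the other 2, Hephl1 and Fth1. The distance was small for some, as for Ftl1 (109 CPM, against 111 and 112 CPM in the other knockout libraries). How often this library was lowest or highest over all tested genes was not counted. The same library and control replicate 3 lay apart from the other 4 on the second principal component of all tested genes (15.9% of the variance; -14.1 and -15.1, the others above 0). With both of these left out, 9 of the 10 genes were called, Slc11a2 in addition, and each gene kept its direction.

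Levels per kilobase spanned a wide range. In knockout cells the order was Fth1 (461 ± 46.9 CPM per kilobase), Ftl1 (114 ± 1.56), Tfrc (51.8 ± 7.99), Steap4 (29.7 ± 2.67), Slc11a2 (22.7 ± 0.756), Cp (17.8 ± 1.94), Heph (12.3 ± 0.901), Slc40a1 (5.79 ± 0.391), Trf (5.75 ± 0.671) and Hephl1 (1.46 ± 0.182; SD, n = 3 each). Slc40a1 and Trf overlapped there. In control cells Slc11a2 (20.7 ± 0.388) and Steap4 (19.8 ± 1.38) overlapped, Heph (15.2 ± 1.05) stood above Cp (11.4 ± 0.803), and Slc40a1 (7.03 ± 0.29) stood well above Trf (3.12 ± 0.22). The order of near neighbours depends on the length used: with the union of all exons Slc40a1 (2.17 ± 0.147 in knockout and 2.63 ± 0.109 in control cells) was below Trf in knockout cells (4.46 ± 0.52) and near it in control cells (2.41 ± 0.17).

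The rest of iron handling was described with 90 further genes in lists ordered by role, of which 87 were matched and 77 tested. In knockout cells 21 of these were called higher (27.3%, against 11.9% of all tested genes) and 9 lower (11.7%, against 10.5%), with a median log2 fold change of 0.082. The lists were chosen with earlier results of these data known. Their shares, here and below, are therefore a description and not evidence about iron genes as a class. Of 9 tested genes of uptake, 4 rose (44.4%, against 11.9% of all tested genes) and 2 fell (22.2%, against 10.5%). Tfr2, the second transferrin receptor, known as an iron sensor of liver and red cell precursors, was at 20.6 ± 2.81 CPM in knockout and 10.9 ± 1.7 CPM in control cells (log2 fold change 0.92, SE 0.13; edgeR adjusted p = 0.000356). Scara5, a receptor for ferritin, was at 78.8 ± 1.94 CPM in knockout and 52.2 ± 5.93 CPM in control cells (log2 fold change 0.59, SE 0.07; edgeR adjusted p = 4.77e-05). Both were higher in 3 of 3 knockout libraries than in any control library. The reductase gene Steap3 rose by 0.18 on the log2 scale at an edgeR adjusted p of 0.0485 and lost that call in DESeq2, in limma-voom, with total count scaling and on leaving out any library except knockout replicate 1 (adjusted p of 0.0159 to 0.218 across the alternatives). Lcn2, which binds iron carriers of bacteria, rose as well at a level under 1 CPM (0.834 ± 0.144 in knockout and 0.375 ± 0.0338 in control cells; edgeR adjusted p = 0.00878), a gene named with its values known.

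Steap1, a relative of Steap4, fell to 7.07 ± 0.138 CPM in knockout cells, against 9.56 ± 0.314 CPM in control cells (log2 fold change -0.44, SE 0.088; edgeR adjusted p = 0.00277). Steap1 and Steap4 thus moved in opposite directions. Slc39a8, which encodes a transporter of zinc that also carries iron and manganese, fell by 0.25 on the log2 scale (edgeR adjusted p = 0.0384) and lost that call in DESeq2 and on leaving out any library except knockout replicate 1 (adjusted p up to 0.141).

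Of 7 tested genes of iron sensing and hepcidin control, Aco1 rose, Fbxl5 fell and 5 were not called, a called share of 28.6% against 22.4% of all tested genes. Aco1, whose protein is iron regulatory protein 1 when it lacks its iron-sulfur cluster, was at 373 ± 11.4 CPM in knockout and 299 ± 3.68 CPM in control cells (log2 fold change 0.32, SE 0.045; edgeR adjusted p = 0.000197). Ireb2, the gene of iron regulatory protein 2, was at 37.2 ± 1.73 CPM in knockout and 38.3 ± 2.07 CPM in control cells (edgeR adjusted p = 0.66; chosen with its values known). Fbxl5, which marks that protein for degradation, was at 96.8 ± 6.15 CPM in knockout and 109.6 ± 1.81 CPM in control cells (log2 fold change -0.18, SE 0.053; edgeR adjusted p = 0.0264). Its call was lost without control replicate 1 or knockout replicate 2 or 3 (adjusted p of 0.0149 to 0.0963). Hepcidin (Hamp), the hormone that removes ferroportin from the membrane, had at most 1 count in a library. Of the 3 tested genes of ferritin turnover 0 were called by edgeR, DESeq2 or limma-voom and 0 had an unadjusted edgeR p under 0.05, the iron chaperone genes Pcbp2 (67.5 ± 0.317 CPM in knockout and 66.9 ± 1.1 CPM in control cells) and Pcbp1 (52.3 ± 4.03 and 56.4 ± 1.82 CPM, in the same order) among them. Pcbp1 was called lower without knockout replicate 2 (log2 fold change -0.17; edgeR adjusted p = 0.0411).

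Genes of haem were called in both directions. Of 8 tested genes of haem synthesis, 2 rose (25%, against 11.9% of all tested genes) and 1 fell (12.5%, against 10.5%). Alas1, the first and rate-limiting step outside red cells, rose to 176 ± 3.42 CPM in knockout cells, against 136 ± 5.2 CPM in control cells (log2 fold change 0.37, SE 0.047; edgeR adjusted p = 6.27e-05). Urod rose by 0.27 (edgeR adjusted p = 0.00707) and Cpox fell by 0.22 on the log2 scale (edgeR adjusted p = 0.0177, and not called without control replicate 1). Of 14 tested genes of haem breakdown and transport, 3 rose (21.4%, against 11.9% of all tested genes) and 2 fell (14.3%, against 10.5%). Hp, haptoglobin, which binds free haemoglobin and is made by fat cells, was at 70.1 ± 5.03 CPM in knockout and 46.7 ± 0.923 CPM in control cells (log2 fold change 0.59, SE 0.059; edgeR adjusted p = 1.04e-05). Blvrb, a biliverdin reductase gene, and the haem transporter gene Slc48a1 both rose by 0.25, Blvrb not called without control replicate 1 or knockout replicate 3. Flvcr2 fell most in this group, a membrane transporter related to the haem exporter Flvcr1, at 10.1 ± 0.522 CPM in knockout and 18.8 ± 0.508 CPM in control cells (log2 fold change -0.90, SE 0.077; edgeR adjusted p = 2.96e-06). Abcg2, an efflux pump that can carry porphyrins, fell by 0.27 on the log2 scale (edgeR adjusted p = 0.0221), a call lost on leaving out knockout replicate 3 or control replicate 1 or 2 (adjusted p up to 0.102).

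Of the iron-sulfur cluster genes, rises were called for 10 of 27 (37%, against 11.9% of all tested genes). Falls were called for 3 (11.1%, against 10.5%), and 14 were not called. Cisd3, a mitochondrial iron-sulfur protein, was at 21.1 ± 0.705 CPM in knockout and 13.3 ± 0.689 CPM in control cells (log2 fold change 0.66, SE 0.073; edgeR adjusted p = 2.24e-05). Bola3 and Isca2, genes of late assembly factors, both rose by 0.46 (edgeR adjusted p of 9.48e-05 and 0.000359). Fdxr, ferredoxin reductase, fell by 0.37 (edgeR adjusted p = 0.00307) and Nubp1, of the cytosolic assembly pathway, by 0.30 (edgeR adjusted p = 0.00265). Cisd2, a relative of Cisd3 in the endoplasmic reticulum and outer mitochondrial membrane, fell by 0.20 (edgeR adjusted p = 0.0118), a call lost on leaving out knockout replicate 3 or control replicate 1. Genes of copper delivery, which supply the metal that ferroxidases need, were called in 1 of 9 cases (11.1%, against 22.4% of all tested genes). This was Atox1, a copper chaperone, which rose by 0.20 (edgeR adjusted p = 0.00639).

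**Figure D4:**
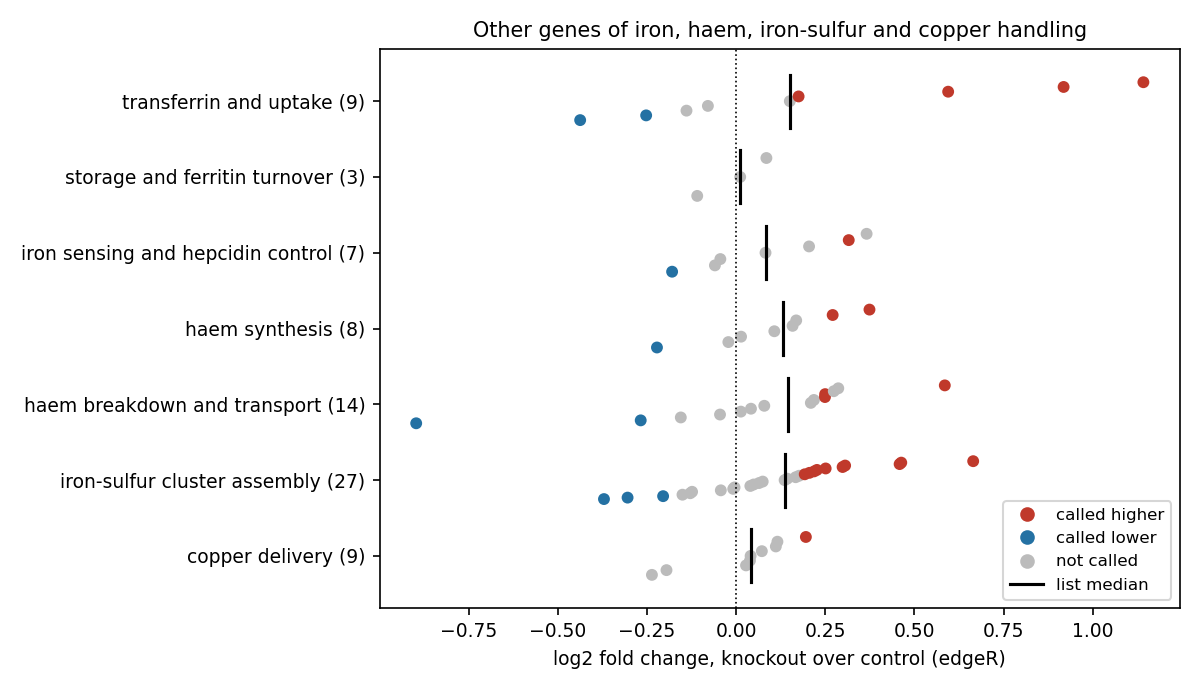
Fold change (log2, knockout over control, edgeR) of each tested gene in 7 role lists, without the 10 genes described first; the number tested is in brackets, red points were called higher, blue points lower, grey points not called, and the black line is the list median. Uptake genes spread widest, from -0.44 (Steap1) to 1.14 (Lcn2), and the list medians lie between 0.011 and 0.15.

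The 5 genes named next had the profile most like that of Hephl1 across the 6 libraries, measured as the root mean square difference of log2 CPM after each gene was centred on its mean, among 11275 candidates with a median difference of 0.607. Ppp1r1a, an inhibitor of protein phosphatase 1, differed by 0.105 (34.0 ± 2.76 CPM in knockout and 15.2 ± 0.467 CPM in control cells). Pcolce2, an enhancer of procollagen processing, differed by 0.107 (22.4 ± 1.1 and 11.1 ± 0.564 CPM, in the same order). Ppl, which encodes the junction protein periplakin, differed by 0.130, Lrrn3 by 0.144 and the oxytocin receptor gene Oxtr by 0.149. All 5 shared with Hephl1 a level in knockout cells far above that in control cells, which the choice by likeness fixes.

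Promoter entries were found for 6 of the 10 genes in RefSeq (GRCm38.p6), among them Hephl1. In the 250 bases before the start sites of these 6, the letters CTTTGAT, the core of TCF/LEF sites, were not found on either strand. The same letters were found in 3.21% of 32851 such windows. At so low a share, absence from the few windows of these 6 genes cannot show whether Tcf7l2 acts on them. The same windows were searched for TGACNNNGC, taken as an antioxidant site, and ACGTG, taken as a hypoxia site. TGACNNNGC was not found in these genes and was present in 10.2% of all windows. ACGTG was found in Tfrc, 228 bases before a start site, and was present in 16.6% of all windows. A part of these letters in the message levels was not tested.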

How the data were processed

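Per the labels' protocols, a stranded total RNA kit with removal of ribosomal RNA was used for the RNA-seq libraries. The deposited values are raw read counts per Ensembl gene, 49671 genes in 6 libraries. Build GRCm38, DESeq2 1.16.0, featureCounts 1.5.1 and STAR 2.5.2b are listed, with no roles, in the submitters' processing notes. Annotation release, strand setting and the handling of multi-mapping reads: not given in the sources used here. Columns were assigned by library title and groups by genotype label.

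The test of the counts was the robust quasi-likelihood F-test of edgeR 4.0.16 (R 4.3.3; TMM, filterByExpr, group as the only term, 2-sided). Calls are at an adjusted p under 0.05 (Benjamini-Hochberg over 14946 tested genes), and the SE of a log2 fold change is its size over the square root of F. Levels per kilobase use the length of the best-ranked APPRIS transcript, the longest where several tie. The alternatives were other scalings and filters, DESeq2 1.42.0, limma-voom (limma 3.58.1), an adjusted p of 0.01 and leaving out libraries. Exon union lengths were an alternative added after seeing the data.

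The 10 genes, the wider lists and the markers were chosen with earlier results of these data known. From each wider list, up to 3 called genes per direction, of average log2 CPM 0 or more, were named by fold change, or the 2 most abundant where none was called. Hjv, Fam96a and Fam96b were not analysed here. Genes like Hephl1 were taken from those of average log2 CPM 1 or more without a clone name, with a prior count of 2.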

Additional observations from a re-analysis of the deposited data

How the results depend on the processing

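Each of the 10 genes kept its direction under all 15 alternatives, 1 of which, the stricter threshold, could not change it. Of their 150 alternative values, 143 stayed on the same side of the threshold, 4 lost the call (Ftl1 and Slc40a1 at an adjusted p under 0.01, Ftl1 without control replicate 1, Slc40a1 without control replicate 2) and 3 gained it, all for Slc11a2. The number of the 10 that were called ran from 6 to 9, and from 7 to 9 with 1 library left out. The count over all genes was 3346, 1934 at an adjusted p under 0.01 and 2145 to 3475 with 1 library left out. In the wider lists the lower calls numbered 9, 4 at an adjusted p under 0.01 and 4 to 10 with 1 library left out, and the higher calls 21, with 14 to 20 when 1 library was left out. Control replicate 1 and knockout replicate 3 decided most of this: without them the lower calls were 4 and 5, and the calls over all genes 2145 and 2178. The cause was not tested. Pcbp1 gained a call without knockout replicate 2 and without that library and control replicate 3 together (edgeR adjusted p of 0.0411 and 0.0364). Pcbp2, not called, changed sign without control replicate 2 (log2 fold changes of -0.00687 to 0.0183 with 1 library left out). With exon union lengths Hephl1 made up 8.89% of ferroxidase messages in knockout cells, in place of 4.68%, since the other 2 genes have long additional exons. Hephl1 was read from few counts, and its SE on the log2 scale was the largest of the 10. Replicate numbers here count the libraries of a group in the order of their titles, and an equal number in both groups marks no pair. No paired analysis was possible because the labels give no pairing.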
